A study of Mus musculus with 16 samples.

Results

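H3K27me3 was compared between hematopoietic stem cells (HSCs) of young mice and of aged mice, from the list of H3K27me3 regions deposited for each age. The members were all regions on chromosomes 1 to 19, 50640 in young HSCs and 15926 in aged HSCs, which together were 66566 of the 122027 regions in the 6 lists of the series (H3K27me3, H3K4me3 and H2AK119ub1 at both ages, all chromosomes). Young HSCs came from female C57BL/6 mice of 10 weeks and aged HSCs from female C57BL/6 mice of 20 months, untreated and of unmodified genotype as far as the labels say. The cells were sorted from bone marrow as positive for Sca-1, c-kit and CD150 and negative for the IL-7 receptor, lineage markers, CD34, CD48 and Flt3. This is a phenotype and not a clone, so a list averages over the sorted population. For each age, 2 H3K27me3 libraries and 2 input libraries were made by chromatin immunoprecipitation followed by sequencing (ChIP-seq), but each age has a single pooled list. No value has an error between libraries and no test between ages was possible. Read depth is unknown, and fewer marked nucleosomes per cell, a weaker immunoprecipitation and a shallower library cannot be told apart in such lists.

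H3K27me3 is trimethylation of lysine 27 on histone H3. It is written by Polycomb repressive complex 2 (PRC2), whose catalytic subunit is Ezh2 or Ezh1, and is read by CBX proteins of PRC1, the complex that makes H2AK119ub1 by ubiquitinating H2A. The mark lies over CpG-rich start sites of genes for development and for other lineages, which PRC2 keeps silent, and can spread into wide domains such as those over the Hox clusters. In HSCs, Polycomb complexes hold lineage genes and the cell cycle inhibitors of the Cdkn2a locus silent.

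A region is a stretch that the peak caller listed as enriched over its background, and a shared region is one that overlapped a region of the other age by at least 1 bp. A gene was counted as marked when a region lay within 1 kb of a start site. It was kept when it was marked at both ages, lost when it was marked in young HSCs only, and gained when it was marked in aged HSCs only. These words describe the 2 lists and do not show that the amount of the mark differed. Covered promoter length is the number of bases within 1 kb of any start site of a gene that lay inside regions, and "kept 500 bp of 1000 bp" gives its aged value against its young value. Intervals in brackets are Wilson 95% intervals over regions or genes and cover counting error only.

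The following stretches show the kind of DNA that was marked. Each is 200 bases of the mm10 genome (RefSeq assembly) within 1 kb of a start site, written 5′ to 3′ on the strand of the gene, outside exons of protein-coding genes, with each CG dinucleotide in capitals. Pax2 and Gata4, which encode regulators of kidney and of heart and endoderm development, are shown for genes kept, and their stretches lay fully inside a region at both ages. Lmo3, a LIM-only cofactor, and Bcat1, a branched-chain amino acid transaminase, are shown for genes lost and lay inside a young region only. Il5, the eosinophil cytokine, and Usp37, a deubiquitinase, are shown for genes gained and lay inside an aged region only. They were chosen from the named genes with their values known.
Pax2, chr19:44755845-44756044, plus strand: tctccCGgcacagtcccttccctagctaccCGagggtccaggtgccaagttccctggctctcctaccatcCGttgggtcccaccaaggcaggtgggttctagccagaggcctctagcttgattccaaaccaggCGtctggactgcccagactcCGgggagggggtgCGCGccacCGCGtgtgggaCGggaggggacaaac
Gata4, chr14:63245569-63245768, minus strand: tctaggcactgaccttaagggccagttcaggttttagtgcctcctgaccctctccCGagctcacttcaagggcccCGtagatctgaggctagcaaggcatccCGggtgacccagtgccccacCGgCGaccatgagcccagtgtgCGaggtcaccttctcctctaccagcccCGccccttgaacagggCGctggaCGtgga
Lmo3, chr6:138421453-138421652, minus strand: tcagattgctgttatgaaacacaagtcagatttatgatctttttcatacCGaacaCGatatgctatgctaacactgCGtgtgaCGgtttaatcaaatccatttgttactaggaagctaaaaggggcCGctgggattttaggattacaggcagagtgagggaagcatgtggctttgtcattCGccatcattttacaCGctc
Bcat1, chr6:145076185-145076384, minus strand: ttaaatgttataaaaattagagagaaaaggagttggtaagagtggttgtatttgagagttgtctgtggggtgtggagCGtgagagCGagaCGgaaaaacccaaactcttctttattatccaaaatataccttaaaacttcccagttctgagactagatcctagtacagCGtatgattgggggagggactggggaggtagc
Il5, chr11:53720594-53720793, plus strand: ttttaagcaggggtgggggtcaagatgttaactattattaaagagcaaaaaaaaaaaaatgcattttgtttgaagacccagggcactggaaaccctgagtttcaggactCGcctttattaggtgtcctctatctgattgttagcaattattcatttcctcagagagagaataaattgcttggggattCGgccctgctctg
Usp37, chr1:74543778-74543977, minus strand: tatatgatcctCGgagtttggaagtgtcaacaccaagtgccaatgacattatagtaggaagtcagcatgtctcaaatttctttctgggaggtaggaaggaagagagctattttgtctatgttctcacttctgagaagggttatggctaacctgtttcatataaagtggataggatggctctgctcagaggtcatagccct

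The Pax2 stretch held 10 CG dinucleotides and the Gata4 stretch 9, while Lmo3 held 7, Bcat1 4, Il5 2 and Usp37 1. Among the 200 bases upstream of a start site of all 20720 protein-coding genes, the median was 8. At least as many CG as in the Pax2 stretch were found in 45.3% of those upstream stretches, and at least as many as in the Usp37 stretch in 90.7%. Over every named gene that had such a stretch, the number of CG ranged from 2 to 30 in 6 kept genes (median 8.5), from 2 to 14 in 8 lost genes (median 4.5) and from 1 to 8 in 8 gained genes (median 3.5). The 3 ranges overlapped. The stretches also differed in place. Their centres lay up to 398 bp from a start site in kept, 253 bp in lost and 794 bp in gained genes. The Usp37 stretch was centred 406 bp downstream, whereas the stretches of all genes were upstream. The numbers are therefore not compared at like positions.

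Aged HSCs had fewer H3K27me3 regions, and the aged list held fewer wide ones. The number of regions in aged HSCs was 0.314 of that in young HSCs, and the covered length was 0.237, at 8.42 Mb against 35.6 Mb. Regions covered 1.44% of chromosomes 1 to 19 in young HSCs and 0.342% in aged HSCs. The median width was 411 bp in young and 385 bp in aged HSCs, a small difference, but the 10% widest regions began at 1353 bp in young and at 995 bp in aged HSCs, and the widest region measured 33297 bp against 7306 bp. The median fold enrichment over local background that the peak caller gave was 3.11 in young and 3.16 in aged HSCs, and among shared regions it was 3.40 and 3.18. The median −log10 q-value was 1.99 and 1.65. These medians were taken over lists of different make-up that a threshold cut off, so they do not compare enrichment at the same sites.

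Most aged regions lay on young regions, and most young regions had no aged counterpart. Of the aged regions, 12167 were shared, which was 76.4% (75.7 to 77.1), and 3759 were found in aged HSCs only. Of the young regions, 8464 were shared, which was 16.7% (16.39 to 17.04). By length, 74.9% of the aged regions lay inside young regions, and 17.7% of the young regions lay inside aged regions. Shared young regions had a median width of 1136 bp, against 370 bp for those found in young HSCs only. Aged regions showed the same order on a smaller scale, with medians of 438 bp for shared regions and 287 bp for those found in aged HSCs only.

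The width of a young region went with what remained of it in aged HSCs. Of the 30692 young regions under 500 bp, 5.56% were shared, and the share was 17.1% from 500 bp to 1 kb, 45.2% from 1 to 2 kb and 83.6% from 2 to 5 kb. Of the 490 young regions of 5 kb or more, 489 were shared. A wide region offers more bases at which it can be touched, so the covered length is given as well. It followed the same order, from 3.44% of the length of regions under 500 bp to 7.74%, 16.6%, 30.5% and 52.2% in regions of 5 kb or more. With regions within 1 kb of each other joined first, the order was the same at lower values, 1.63%, 3.81%, 6.14%, 14.6% and 38.6%. Young regions were also shared more often when their fold enrichment was higher, from 6.18% of the 12661 with the lowest enrichment to 35.3% of the 12659 with the highest, but these sets differed in width too, with medians of 338 bp and 626 bp.

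Wide young regions appeared in aged HSCs as strings of short regions. Among shared young regions of 5 kb or more, 98.0% held 2 or more aged regions, with a median of 5 and a maximum of 23. The same was true of 61.4% of those from 2 to 5 kb and of 0.528% of those under 500 bp. Aged HSCs had 8 regions of 5 kb or more.

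**Figure D1:**
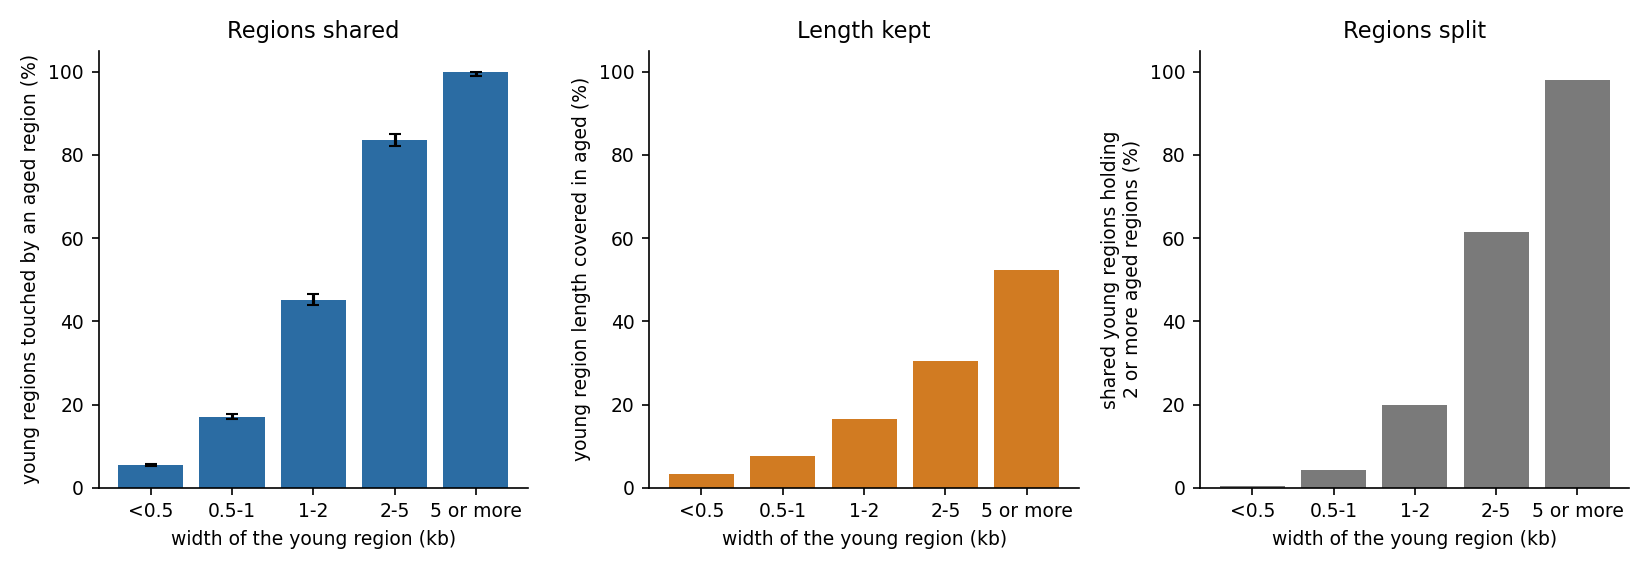
Young H3K27me3 regions on chromosomes 1 to 19 by width class (kb, horizontal axes): left, percent touched by an aged region with Wilson 95% intervals; middle, percent of their length covered in aged HSCs; right, percent of the shared regions that hold 2 or more aged regions. All 3 rise with width, to 99.8%, 52.2% and 98.0% in the class of 5 kb or more.

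Because broad domains were broken into pieces in both lists, regions within 3 kb of each other were joined into domains. Young HSCs had 19895 domains and aged HSCs 7393. There were 469 domains over 20 kb in young HSCs against 112 in aged HSCs, and 59 against 7 over 50 kb. The aged covered length inside young domains was 0.0173 of the young covered length for domains under 1 kb, 0.124 for those from 2 to 5 kb, 0.230 for those from 10 to 20 kb and 0.358 for those of 20 kb or more. Of the young domains of 20 kb or more, 97.2% were touched by an aged region, and of those under 1 kb 2.65%.

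The widest young domain held the Hoxc cluster (chr15:102875539-103125203), which patterns the body axis from front to back. It was 249665 bp wide, and regions covered 213459 bp of it in young HSCs and 92523 bp in aged HSCs. The second held Pax2 (chr19:44583752-44769269) and had 123582 bp covered in young and 50836 bp in aged HSCs. Lifr, the receptor of leukemia inhibitory factor, lay in the third (chr15:7110651-7273413), with 110503 bp and 56511 bp. Pard3, a cell polarity scaffold, lay in the fourth (chr8:127020553-127153125), with 81591 bp and 36310 bp. The Hoxd cluster with Evx2 lay in the fifth (chr2:74642891-74773094), where 118024 bp were covered in young HSCs in 27 pieces and 68041 bp in aged HSCs in 70 pieces. Each of these 5 domains was shorter in covered length in aged HSCs, and the Hoxd domain had the largest share covered, 52.3% of its width against 27.4% for Pax2 and for Pard3.

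Of the 5 widest domains in aged HSCs, 3 lay at the same loci. The Hoxd domain came first at 121699 bp and a Hoxc domain second at 104944 bp, which held Hoxc8 to Hoxc13. Next were Zic1 with Zic4, zinc finger genes of the hindbrain, at 77525 bp, Pard3 at 63816 bp and Nr2f2, an orphan nuclear receptor of veins and mesenchyme, at 63057 bp. Young regions covered 81.3% to 97.0% of the width of these 5 aged domains. The young domain over Pla2g2c, Pla2g2d, Pla2g2f and Ubxn10 went from 58516 bp to 12425 bp, the lowest aged share of width, 10.2%, among the 12 widest.

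**Figure D2:**
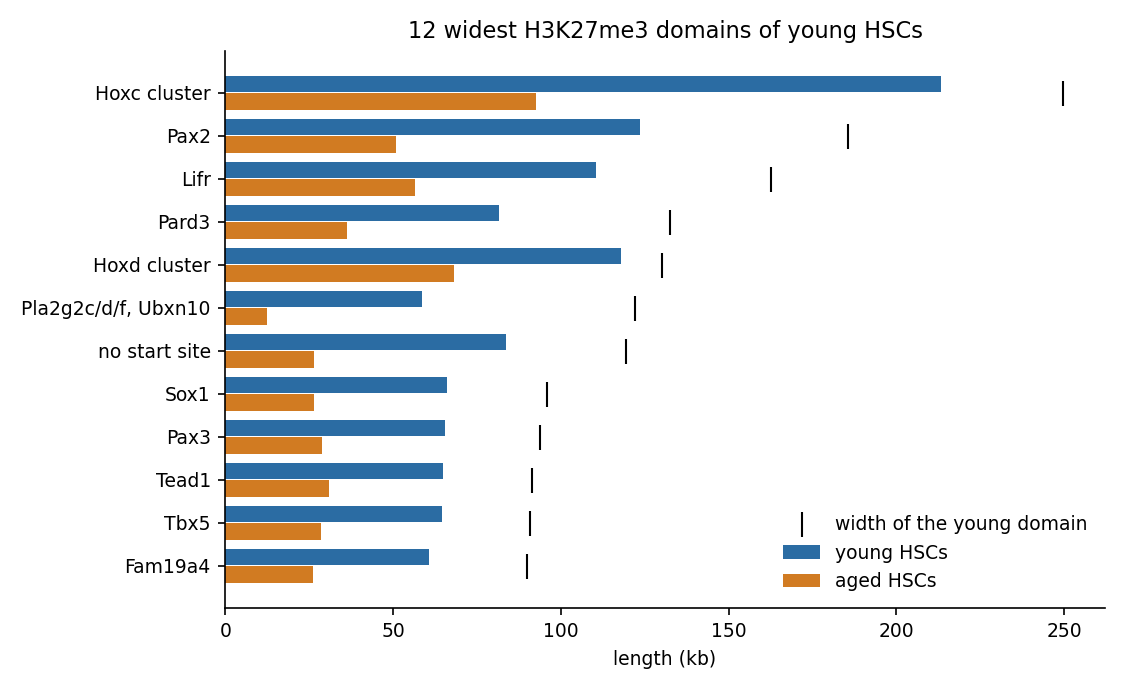
The 12 widest young H3K27me3 domains (regions joined within 3 kb), named by the genes whose start sites they hold, with the length covered by regions in young and aged HSCs (bars, kb, from 0) and the width of the young domain (black tick). The aged bar is shorter in all 12, from 92523 bp for the Hoxc cluster to 12425 bp for the Pla2g2 and Ubxn10 domain.

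Covered length was lower in aged HSCs on each of the 19 chromosomes. The ratio of aged to young covered length ranged from 0.188 on chromosome 9 to 0.295 on chromosome 19. Chromosome 11 had the largest share of its length covered in young HSCs (2.63%) and a ratio of 0.192.

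Regions at start sites were shared more often than regions elsewhere. Promoter regions, which lay within 1 kb of a start site, came to 5339 in young HSCs against 2478 in aged HSCs, a ratio of 0.464, and 43.6% (42.3 to 44.9) of the young ones were shared. The corresponding share was 25.9% for other regions on exons, 12.02% for those in introns and 13.3% for intergenic regions. By length, 31.6% of young promoter regions lay inside aged regions, against 10.6% of intronic and 12.7% of intergenic regions. Promoter regions were also the widest in young HSCs, with a median of 897 bp against 389 bp for intergenic regions. The median distance to the nearest start site was 8037 bp for shared young regions and 30014 bp for those found in young HSCs only. Intergenic regions made up 53.3% of the young list and 48.5% of the aged list.

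Shared regions held more CG dinucleotides, also among regions of like width. The median was 1.41 CG per 100 bp in shared young regions and 0.913 in those found in young HSCs only, beside 0.851 over all of chromosomes 1 to 19. From 1 to 2 kb the medians were 1.42 for shared regions and 1.11 for the others, and from 2 to 5 kb they were 1.86 and 1.34. The quartiles overlapped in each class. The 489 shared regions of 5 kb or more had a median of 2.25. Aged regions were ordered likewise, with 1.32 for shared regions and 0.966 for those found in aged HSCs only.

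At genes, H3K27me3 was listed at the start sites of 3264 of the 20720 protein-coding genes in young HSCs (15.8%) and of 1699 genes in aged HSCs (8.20%). It was kept at 1638 genes (7.91%), lost at 1626 (7.85%) and gained at 61 (0.294%). Of the genes marked in young HSCs, 50.2% were kept. When the young list was reduced to the 15926 regions with the smallest q-values, as many as in the aged list, 1448 genes were kept, 837 lost and 251 gained. In this setting the number kept moved little, whereas the numbers lost and gained depended on how much was listed in young HSCs. The number kept did move in other settings. With only regions of a −log10 q of at least 2, 671 genes were kept and 2041 lost. With a promoter of 5 kb in place of 1 kb, 2464 were kept.

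Kept genes were nearly always covered over a shorter length in aged HSCs. Median covered promoter length was 1546 bp in young and 513 bp in aged HSCs among kept genes, and the median of the ratio within a gene was 0.388 (quartiles 0.221 and 0.586). It was shorter in aged HSCs at 1568 kept genes, longer at 68 and equal at 2. Among kept genes, the promoter windows were wholly covered at 204 genes in young HSCs and at 1 in aged HSCs. Lost genes had less of the mark in young HSCs, with a median of 608 bp. Gained genes had a median of 248 bp in aged HSCs. The width of the widest young region at the start sites separated the classes in a graded way. Of the genes whose widest region was under 500 bp, 13.8% (11.3 to 16.7) were kept, and of those at 5 kb or more, 94.3% (90.8 to 96.5). The steps between were 30.0%, 53.7% and 75.8%.

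Around the start site, coverage of kept genes in young HSCs peaked on both sides and dipped at the start site itself. Regions covered the position 1 kb downstream of the start site in 71.7% of kept genes in young and 33.2% in aged HSCs, and the start site itself in 53.2% and 18.2%. At 10 kb upstream, 13.7% and 4.09% were covered, beside 2.49% and 0.545% of all genes. Lost genes had a lower and narrower peak in young HSCs, with 43.5% covered 1 kb downstream. In aged HSCs, 23.6% of lost genes had a region within 2 kb of a start site and 39.5% had one within 10 kb, so part of the lost genes still had a region not far outside the 1 kb limit. The median distance from a lost gene to the nearest aged region was 30736 bp.

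**Figure D3:**
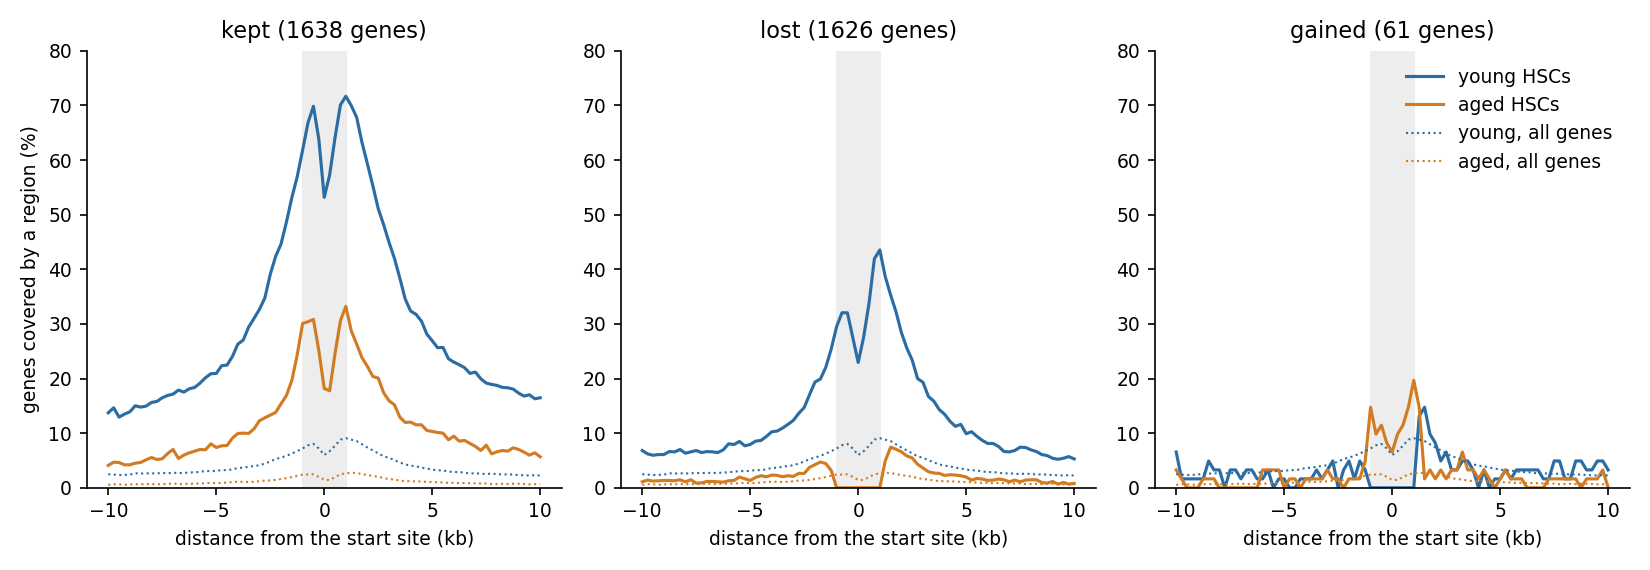
Percent of genes covered by an H3K27me3 region (vertical axis) against distance from 1 start site per gene (kb, horizontal axis) in young and aged HSCs, for kept, lost and gained genes, with all genes as dotted lines; grey marks the 1 kb limit that defines the classes, so the zero levels inside it in lost and gained genes follow from the rule. Kept genes have 2 shoulders and a dip at the start site at both ages, with 71.7% covered 1 kb downstream in young and 33.2% in aged HSCs.

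The 8 kept genes with the longest aged coverage over the gene body were Tead1, Lifr, Fam19a4, Tjp1, Gata4, Pax2, Pard3 and Hoxc5. Tead1, a transcription factor of the Hippo pathway, had 117870 bp covered over the gene in young and 55393 bp in aged HSCs. Its covered promoter length was 4694 bp and 2030 bp. Lifr had 57567 bp and 26496 bp over the gene, with 5486 bp and 3416 bp at its start sites. At the start sites, Fam19a4, a secreted chemokine-like protein, kept 1315 bp of 1530 bp, Pard3 1468 bp of 2046 bp and Pax2 1997 bp of 2960 bp. Tjp1, a tight junction scaffold, was kept by a narrow margin, with 17 bp of 481 bp at the start sites, although 25320 bp were covered over the gene in aged HSCs. All 8 were shorter in aged HSCs at both scales.

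The 8 lost genes with the longest young covered promoter length were Lmo3 (4642 bp), Duoxa1 (3525 bp), Dnajc6 (3178 bp), Lingo1 (3061 bp), Bcat1 (2701 bp), Prss16 (2645 bp), Hes3 (2629 bp) and Matn4 (2549 bp). Aged regions were far from some of them. The nearest one was 412612 bp from Lmo3, 535833 bp from Dnajc6, an auxilin of clathrin uncoating, and 788163 bp from Bcat1. Others were near the limit. The nearest aged region was 1043 bp from a start site of Lingo1, a neuronal inhibitor of myelination, 1051 bp from Hes3, a Hes family repressor, and 1084 bp from Duoxa1, the maturation factor of the dual oxidase Duox1. At Matn4, a matrilin of cartilage matrix, the whole 2549 bp window was covered in young HSCs and none of it in aged HSCs.

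The 8 gained genes with the longest aged covered promoter length were Usp37 (694 bp), Dmtn (648 bp), Il5 (578 bp), Slc37a3 (540 bp), Agtr1b (511 bp), Myl9 (470 bp), Gpat2 (463 bp) and Xkr4 (386 bp). These were the longest of the 61 gained genes, whose median was 248 bp, beside 513 bp in kept genes in aged HSCs. At Il5 the aged region lay over the start site and the nearest young region was 232670 bp away. At Agtr1b, an angiotensin II receptor, the nearest young region was 670214 bp away, and at Myl9, a myosin light chain of smooth muscle, 83686 bp. At Slc37a3 and Xkr4, in contrast, a young region lay 1040 bp and 1065 bp from a start site, just past the limit. The nearest young region was also close to Usp37 (1231 bp) and Gpat2 (1845 bp), and it was 5581 bp from Dmtn. Of all 61 gained genes, 42.6% had a young region within 5 kb, beside 6.61% of genes without the mark at either age.

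Regulators of development kept H3K27me3 in large proportions. Of all genes, 15.8% were marked in young HSCs, and 50.2% of those were kept. All 12 LIM homeobox genes, which specify neurons and limb, were marked in young HSCs and all 12 were kept. Of 15 T-box genes 12 were marked and all were kept, and of 9 PAX genes 8 were kept and 1, Pax4, was lost. Of 24 NKX, IRX and ZIC genes 20 were kept and 2 lost, and of the 5 GATA genes on these chromosomes Gata4, Gata5 and Gata6 were kept, while the others had no region. Tissue-specific bHLH genes were kept at 20 of 35 and lost at 7, forkhead genes other than FOXO at 15 and 7 of 38, and SOX genes at 7 and 4 of 18. Of these lists, forkhead and SOX genes lay nearest to all genes, with 68.2% and 63.6% of marked genes kept. With equal region numbers the shares were 68.4% and 70%, beside 63.4% of all genes. None of these 8 lists held a gained gene. This does not set them apart, since 0.294% of all genes were gained and most members of each list were already marked in young HSCs. With equal region numbers 2 forkhead genes were gained, and with a 5 kb promoter 1 SOX gene.

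Kept members of these families had shorter coverage in aged HSCs. Pax3, a factor of neural crest and muscle progenitors, kept 2110 bp of 2297 bp, and Pax6, the eye and forebrain factor, kept 3967 bp of 6795 bp. Lhx9, of gonad and limb, kept 3976 bp of 4579 bp, whereas Lhx3, of pituitary and motor neurons, kept 533 bp of 2440 bp. Among T-box genes, Tbx15 kept 1314 bp of 2001 bp and Tbx3 286 bp of 2073 bp. Nkx2-9 went the other way, with 1753 bp covered in young and 1834 bp in aged HSCs. Hand2, a factor of heart and limb, kept 1543 bp of 2001 bp within a young region of 32356 bp. The width of the widest region had a median of 6906 bp in young and 844 bp in aged HSCs in marked LIM homeobox genes, and of 7956 bp and 2095 bp in PAX genes.

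**Figure D4:**
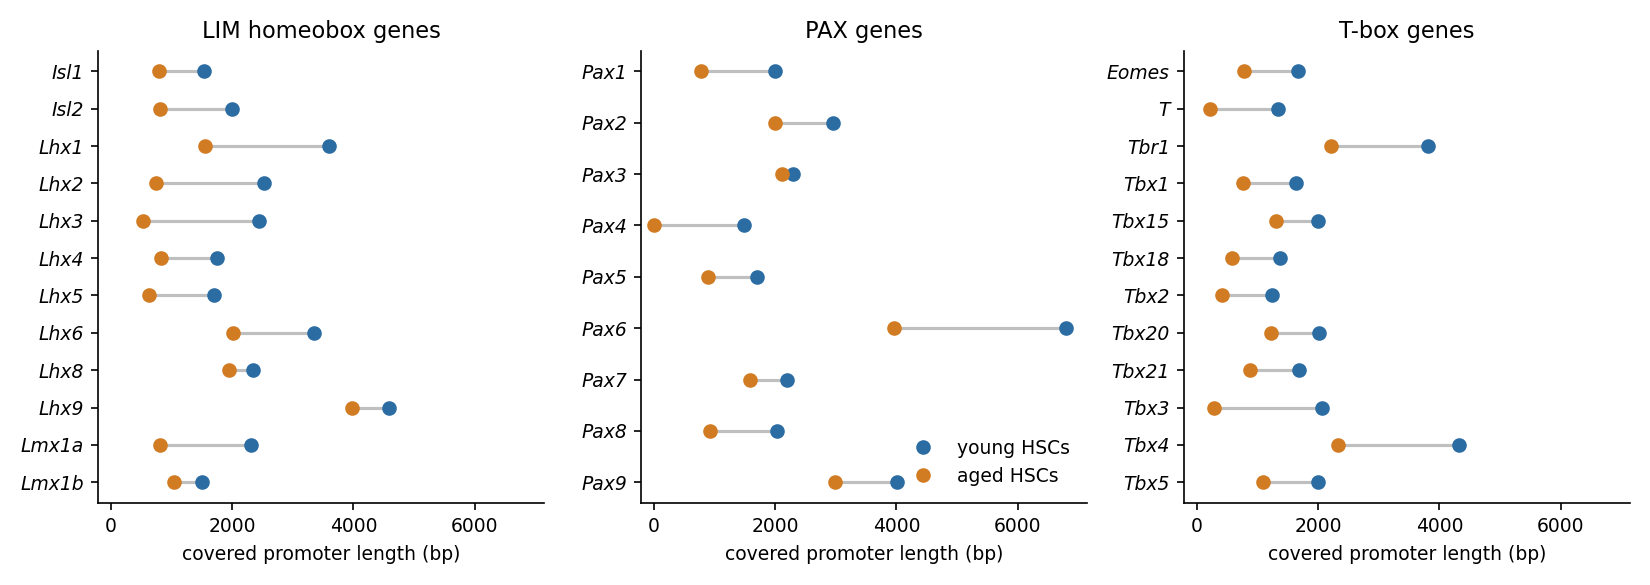
Covered promoter length (bp, horizontal axes) in young (blue) and aged HSCs (orange) for each LIM homeobox, PAX and T-box gene with a region in young HSCs; each pair of points is 1 gene with 1 value per age. Every orange point lies to the left of its blue point, from Pax3 with 2110 bp of 2297 bp to Pax4, which is at 0 in aged HSCs.

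Hox cluster genes were marked at 29 of 39 in young HSCs, of which 23 were kept and 6 lost. The kept share was 79.3%, beside 50.2% of all genes marked in young HSCs. Hoxd3 kept 2500 bp of 6003 bp and Hoxc4 969 bp of 3132 bp. The 4 lost genes with the longest young coverage were all in the Hoxb cluster, Hoxb7 (2001 bp), Hoxb1 (1851 bp), Hoxb9 (1364 bp) and Hoxb6 (1328 bp). Hoxb8, between Hoxb7 and Hoxb9, kept 448 bp of 2821 bp. The nearest aged region was 2832 bp from Hoxb7 and 81961 bp from Hoxb1. H3K4me3, the mark of active or poised start sites, was listed at Hoxb7 in young HSCs only, at Hoxb6 at both ages, and at Hoxb1 and Hoxb9 in aged HSCs only.

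The share that was kept ranged widely among signalling families, and differences between families were not tested. Hedgehog pathway genes were kept at 7 of the 8 marked, among them Shh (246 bp of 1793 bp), Ihh (848 bp of 2001 bp) and Dhh (1252 bp of 2035 bp), and the effector Gli2 was lost. WNT ligands, receptors and antagonists were kept at 19 and lost at 12 of 40, with Dkk1, a WNT antagonist, at 1437 bp of 2001 bp and Wnt2b lost from 1797 bp. BMP, GDF and TGF-beta genes were kept at 10 and lost at 10 of 31, and Bmp4 (1157 bp) and Tgfb2 (780 bp), both secreted ligands, were among the lost. FGF ligands were kept at 8 and lost at 6 of 20. Ephrins and Eph receptors, the contact-dependent guidance system, were lost at 11 and kept at 3 of 21, which was 21.4% of those marked, beside 50.2% of all genes. This place below all genes rested on the 1 kb limit, since with a 5 kb promoter 9 of 15 were kept (60%, beside 55.5% of all genes), and with equal region numbers 3 of 7 (42.9%, beside 63.4%). Their young coverage was short, with a median of 339 bp among marked members against 1094 bp among all marked genes. Notch pathway genes were lost at 4 (the ligands Dll1 and Dll3, and Hes2 and Hes3) and kept at 2 (Hey1 and Hey2) of 19.

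Genes of excitable cells were often marked in young HSCs, at 76.7% of glutamate and GABA receptors and 68.1% of potassium channels. Of all genes, 15.8% were marked. Potassium channels were kept at 40, lost at 22 and gained at 1 of 91. Kcna2, a voltage-gated channel of axons, kept 2080 bp of 2985 bp, and Kcnf1 was gained with 166 bp. Sodium and calcium channels were kept at 19 and lost at 4 of 39, and all 4 lost genes were calcium channel subunits (Cacna1a, Cacna1c, Cacna1g and Cacna1s). Glutamate and GABA receptors were kept at 22 and lost at 11 of 43. The GABA receptor subunit Gabrb1 was lost from full coverage of its 2001 bp window, with the nearest aged region 604640 bp away. Monoamine and acetylcholine receptors were kept at 18 and lost at 14 of 47. In the order given, these 4 lists kept 64.5%, 82.6%, 66.7% and 56.25% of their marked genes, beside 50.2% of all genes. Forkhead and SOX genes, at 68.2% and 63.6%, were similar to potassium channels. With equal region numbers the 4 lists kept 70%, 81.8%, 69.2% and 73.9%, beside 63.4% of all genes.

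Claudins, keratins and clustered protocadherins were lost more often than kept, also with a 5 kb promoter and with equal region numbers. Of all genes marked in young HSCs, 50.2% were kept, 55.5% with a 5 kb promoter and 63.4% with equal region numbers. With equal region numbers the counts were small, and genes were gained as well. Of the marked genes, 1 of 3 protocadherins, 4 of 10 keratins and 1 of 6 claudins were then kept, and 4, 4 and 0 were gained. Claudins, the proteins of tight junctions, were lost at 7 and kept at 1 of 22, with Cldn3 kept at 866 bp of 2001 bp and Cldn5, of endothelium, lost from 1498 bp. Keratins were lost at 18, kept at 7 and gained at 1 of 53, and clustered protocadherins were lost at 10, kept at 4 and gained at 1 of 57. Cadherins were kept at 6 and lost at 6 of 23. Collagens were kept at 15 and lost at 11 of 42. The kept shares of marked cadherins (50%) and collagens (57.7%) were near that of all genes. Olfactory receptors were rarely marked, at 69 of 1086 genes in young HSCs (6.35%, beside 15.8% of all genes), and 61 of the 69 were lost. Vomeronasal receptors were marked at 4 of 326 and all 4 were lost. Members of these receptor families are close copies of each other, so reads may have been placed among copies.

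Over the 21 lists with 10 or more genes marked in young HSCs, 14 kept a larger share than all genes. At the 1 kb limit, the lists with the smallest shares were olfactory receptors (11.6%), ephrins and Eph receptors (21.4%), keratins (28.0%) and clustered protocadherins (28.6%). The largest were LIM homeobox and T-box genes (100%), NKX, IRX and ZIC genes (90.9%) and sodium and calcium channels (82.6%). The lists also differed in young width, which went with being kept among all genes, and the part of width in the order of the lists was not tested.

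**Figure D5:**
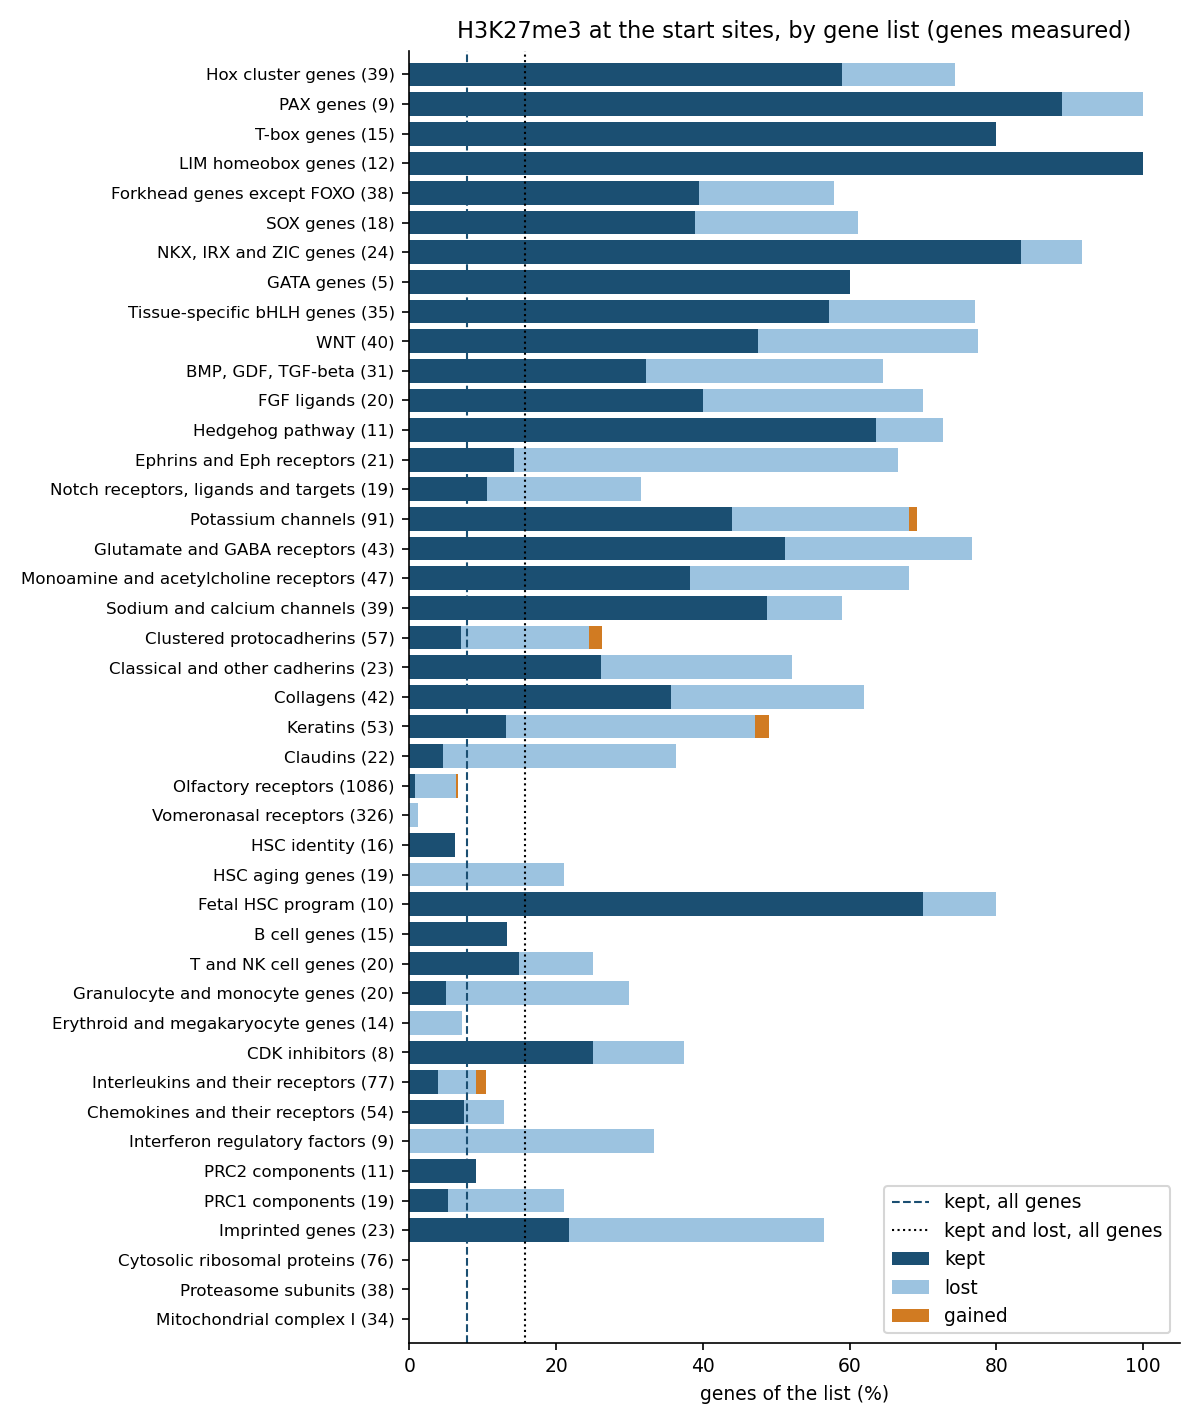
Percent of the genes of each list shown (number measured in brackets) whose start sites kept, lost or gained H3K27me3 between young and aged HSCs, as stacked bars from 0, with dashed and dotted lines for all genes kept (7.91%) and all genes marked in young HSCs (15.8%). Developmental regulators have long dark bars, claudins and keratins mostly light ones, and the 3 housekeeping lists at the bottom have none.

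The HSC label was checked against marker genes. Of 16 HSC identity genes, 13 had H3K4me3 at a start site in young and 12 in aged HSCs, and only Erg, an ETS factor of HSCs and endothelium, had H3K27me3, with 1458 bp and 463 bp of its 8107 bp of windows. H3K4me3 was listed at 2 of 15 B cell genes, 2 of 20 T and NK cell genes and 3 of 14 erythroid and megakaryocyte genes in young HSCs, and at 1, 4 and 1 in aged HSCs. Granulocyte and monocyte genes had it at 4 of 20 and 3 of 20. Over all genes, H3K4me3 was listed at 35.4% in young and 24.4% in aged HSCs.

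Lineage genes of blood were marked at shares on both sides of that of all genes. In young HSCs, H3K27me3 was listed at 2 of 15 B cell genes (13.3%) and 5 of 20 T and NK cell genes (25.0%). It was listed at 6 of 20 granulocyte and monocyte genes (30.0%), beside 15.8% of all genes. Of the marked genes of these 3 lists, 2, 3 and 1 were kept, beside 50.2% of all genes marked in young HSCs. With equal region numbers, 2, 4 and 2 were marked and 2, 3 and 0 kept, and differences between these lists were not tested. Pax5 and Ebf1, both needed for B cell commitment, kept 893 bp of 1704 bp and 1661 bp of 2001 bp, and no other gene of the B cell list was marked. Of the T and NK cell genes, the factors Bcl11b (395 bp of 796 bp), Eomes (775 bp of 1673 bp) and Tbx21 (874 bp of 1683 bp) were kept, and Cd2 and Cd3e were lost. Of the granulocyte and monocyte genes, 5 were lost, among them Cd14 (629 bp), Cebpa (536 bp), Irf8 (343 bp) and Klf4 (218 bp), and Gfi1 was kept with 175 bp of 200 bp. The nearest aged region was 71249 bp from Cebpa. Irf4 (1369 bp) and Irf5 (469 bp) were lost like Irf8, and the other 6 of the 9 interferon regulatory factors had no region, while 7.91% of all genes were kept. With equal region numbers, none of the 9 was marked in young HSCs. The one marked erythroid and megakaryocyte gene, Gp1bb, a platelet glycoprotein, was lost from 1807 bp.

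Genes of the fetal HSC program and genes of HSC aging were counted next, and the difference between the lists was not tested. Of 10 genes of the fetal HSC program, 7 were kept, among them Sox17, which fetal HSCs require, at 1041 bp of 2345 bp, and the RNA-binding genes Igf2bp1 (768 bp of 2001 bp) and Igf2bp3 (594 bp of 1403 bp). Lin28b, which drives the fetal state, was kept by 2 bp of 833 bp, since the nearest aged region began 999 bp from a start site. Plagl1 was lost. Of all genes, 15.8% were marked in young HSCs, 7.91% were kept and 7.85% were lost. Of 19 genes known to rise in aged HSCs, none was kept, 4 were lost and 15 had no region at either age. The 4 were Osmr, the oncostatin M receptor (1850 bp), Neo1, the netrin receptor neogenin (865 bp), Mt1, a metallothionein (824 bp), and Zswim5 (393 bp). With equal region numbers, 2 of the 19 were marked in young HSCs and neither was kept, so the absence of kept genes rests on few marked genes.

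Among cell cycle inhibitors, Cdkn2a and Cdkn2b lay in a young region of 15091 bp. Cdkn2a, which encodes p16Ink4a and p19Arf, kept 1021 bp of 3640 bp and Cdkn2b, which encodes p15Ink4b, kept 253 bp of 1625 bp. Cdkn2c was lost from 868 bp, and the other 5 of the 8 inhibitors had no region. Of 19 PRC1 genes 1 was kept and 3 were lost, beside 7.91% of all genes kept and 7.85% lost. With a 5 kb promoter 5 PRC1 genes were marked in young HSCs and all 5 were kept. Cbx8, a PRC1 reader, kept 231 bp of 584 bp, while Cbx2 and Bmi1 were among the lost, from 649 bp and 314 bp. Epop, a PRC2 accessory factor, kept 389 bp of 700 bp, and no other of the 11 PRC2 genes was marked.

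Imprinted genes were kept at 5 and lost at 8 of 23. The kept share of marked genes was 38.5%, beside 50.2% of all genes. It depended on the 1 kb limit, being 60% with a 5 kb promoter, beside 55.5% of all genes. With equal region numbers it was 57.1%, beside 63.4%. Magel2, in the Prader-Willi region, was the exception in length, with 280 bp covered in young and 971 bp in aged HSCs. Interleukins and their receptors were kept at 3, lost at 4 and gained at 1 (Il5) of 77, and chemokines and their receptors were kept at 4 and lost at 3 of 54. Cxcl12, the niche chemokine that retains HSCs, kept 1083 bp of 2043 bp. None of 76 ribosomal protein genes, 38 proteasome genes and 34 complex I genes was marked at either age.

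The base composition of promoters differed between the classes. The ratio of observed to expected CG in the 2 kb around a start site had a median of 0.569 in kept, 0.499 in lost, 0.332 in gained and 0.481 in unmarked genes. Genes with a ratio under 0.2 were marked in 6.02% of cases in young HSCs and 20.6% of these were kept. From 0.4 to 0.6, 22.1% were marked and 57.4% of these kept, and above 0.8, 13.9% were marked and 50.2% kept. The highest frequency was thus at intermediate CG content and not at the most CG-rich promoters.

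H3K4me3 was also listed at fewer genes in aged HSCs, whereas H2AK119ub1 was listed at more. H2AK119ub1, the PRC1 product, was listed in aged HSCs at 64.3% (61.9 to 66.6) of kept, 38.6% (36.2 to 41.0) of lost, 23.0% of gained and 7.47% of unmarked genes. In young HSCs, it was listed at 16.3% of kept, 5.54% of lost, 0.328% of unmarked and none of the 61 gained genes (upper Wilson bound 5.92%). Over all genes its number went from 414 to 2993, that of H3K27me3 from 3264 to 1699 and that of H3K4me3 from 7325 to 5061. The aged list was the shorter one for H3K27me3 and H3K4me3 and the longer one for H2AK119ub1, and each mark has its own libraries. Lost genes did not show H3K4me3 more often in aged HSCs. Of 1626 lost genes, 314 (19.3%) had it in young and 200 (12.3%) in aged HSCs, and 85 had it in aged HSCs only. Among kept genes, it went from 319 (19.5%) to 164 (10.0%), and among unmarked genes from 38.4% to 26.96%.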

How the data were processed

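Broad region lists for H3K27me3 were deposited as 1 pooled list per age. The authors sonicated and MNase-digested chromatin crosslinked with 0.5% formaldehyde, aligned single reads to mm10 with Bowtie2, and the submitters' processing notes list MACS2 2.2.6. The deposited lists give a fold enrichment (a ratio to local background) and a −log10 q-value per region, averaged over the region. The region names carry a single library number, so it is not certain that both H3K27me3 libraries of an age entered its list.

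From these, widths, overlaps and covered lengths were computed on chromosomes 1 to 19 in Python 3 with numpy and pandas. Genes were the 20720 protein-coding genes of GENCODE M21 (basic set, mm10), with 39540 start sites. GC and CG content came from the RefSeq mm10 assembly. Interval and coverage functions were tested on simulated data. With 1 list per age there was no test. The 44 gene lists and the members were chosen with earlier results of these data known. Named genes were the 8 kept genes with the longest aged coverage over the gene extended by 1000 bp, the 8 lost with the longest young and the 8 gained with the longest aged covered promoter length, the 5 widest domains per age, and list members; others that the text names were chosen after their values were seen. H3K4me3 and H2AK119ub1 lists were used as presence at start sites only. Some genes and 1 list are not reported here. Alternatives were a −log10 q of at least 2, equal region numbers, joining within 1 kb, adding chromosome X, a 50% overlap, a 5 kb or 500 bp promoter and 1 start site per gene.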

Additional observations from a re-analysis of the deposited data

Results flagged for a closer look

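Chromosome X was outside the comparison and held many H3K27me3 regions in both lists, 12502 in young HSCs and 4493 in aged HSCs. The aged list was the shorter one there too. No control list was used for chromosome X, so the numbers are given as values only.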

How the results depend on the processing

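No paired analysis was possible because each age has 1 pooled list, and for the same reason no replicate could be left out. Of 53 alternative values for 10 results, 33 stayed within the limits set, 20 moved and none reversed. A −log10 q of at least 2 gave a length ratio of 0.127, a number ratio of 0.176, shares of 10.3% of young and 80.5% of aged regions, 671 genes kept and 28 gained. Equal region numbers gave a length ratio of 0.442, a number ratio of 1 by construction, shares of 34.3% and 57.9%, 837 genes lost and 251 gained. Joining within 1 kb gave shares of 17.1% and 72.01%, chromosome X 15.4% and 66.01%, and a 50% overlap 5.82% and 66.3%. A 5 kb promoter gave 2464 genes kept and 94 gained. The cause was not tested. All protein-coding transcripts, an alternative chosen after seeing the data, gave 1701 kept, 1641 lost and 64 gained. The 14 of 21 gene lists that kept more than all genes became 18 with a 5 kb promoter and 15 with equal region numbers. Intervals cover counting error over regions or genes, which are not independent, and say nothing of the spread between libraries. A weakly marked region may be unlisted at 1 age, so lost and gained describe the lists.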
